A study of Mus musculus with 6 samples.

Results

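The 32 genes described here encode liver enzymes that break down amino acids. They were taken as a named list from 8 pathways, namely tyrosine (5 genes), tryptophan (6), histidine (4), glycine and serine (6), alanine and aspartate (3), proline (2), branched-chain amino acids (5) and lysine (1). All 32 were found among the 55385 genes of the count table, and all 32 were among the 14454 genes with enough counts to be tested. The RNA-seq libraries were of poly(A) RNA from whole liver of male C57BL/6 mice that started a high-fat diet at 6 to 8 weeks of age, ate it for 10 weeks, underwent vertical sleeve gastrectomy (VSG, in which the greater part of the stomach is cut away) or a sham operation, and ate it for another 12 weeks. Both groups carried no engineered allele according to the labels and methods and had the same diet throughout, so each comparison was between livers after sham surgery (replicates 1 to 3) and after VSG (replicates 4 to 6). Lean or unoperated mice were not analysed here.

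The liver is the main site where most amino acids are degraded. A transaminase or a deaminase first removes the amino group, which is passed on towards urea, and the remaining carbon skeleton is cut down to pyruvate, acetyl-CoA or intermediates of the citric acid cycle, which can serve as fuel or for making glucose. Branched-chain amino acids are an exception, because their first transamination takes place largely outside the liver. Many of these enzymes, such as Tat, Tdo2 and Sds, are classical targets of glucocorticoids, glucagon or dietary protein in hepatocytes.

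The promoters of 3 of the 6 enzymes that were lower after VSG are shown, because their windows held different sets of the motifs searched. They are from RefSeq (GRCm38.p6, the assembly of mm10), 250 bases before to 50 after an annotated start, in lower case with matches to 8 searched motifs on either strand in capitals. Gpt2 held 2 GC boxes and Aldh4a1 held 3 CCAAT boxes, all read on the opposite strand. Agxt2 held an HNF4 site on the printed strand and, on the opposite strand, a TATA box and a nuclear receptor core motif.
Gpt2, chr8:85492326-85492625, plus strand: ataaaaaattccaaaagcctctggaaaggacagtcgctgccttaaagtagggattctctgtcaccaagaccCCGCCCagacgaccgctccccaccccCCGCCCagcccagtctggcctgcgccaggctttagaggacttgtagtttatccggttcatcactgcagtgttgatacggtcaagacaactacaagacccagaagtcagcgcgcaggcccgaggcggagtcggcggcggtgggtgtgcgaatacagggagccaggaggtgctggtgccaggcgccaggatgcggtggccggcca
Aldh4a1, chr4:139622644-139622943, plus strand: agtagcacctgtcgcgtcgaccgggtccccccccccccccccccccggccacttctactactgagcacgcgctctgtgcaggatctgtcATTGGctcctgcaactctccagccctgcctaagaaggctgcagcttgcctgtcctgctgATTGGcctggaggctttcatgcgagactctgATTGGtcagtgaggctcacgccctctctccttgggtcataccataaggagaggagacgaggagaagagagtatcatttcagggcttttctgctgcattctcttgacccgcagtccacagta
Agxt2, chr15:10358283-10358582, plus strand: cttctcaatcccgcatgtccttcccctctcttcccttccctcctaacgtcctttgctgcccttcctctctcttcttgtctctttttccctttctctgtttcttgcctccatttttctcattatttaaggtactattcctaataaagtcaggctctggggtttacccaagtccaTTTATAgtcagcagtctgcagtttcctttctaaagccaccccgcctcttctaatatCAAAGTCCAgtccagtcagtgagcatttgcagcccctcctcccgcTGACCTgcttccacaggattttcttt

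Of the 32 genes, 28 had at least 1 promoter in that table, with 31 promoters in all. The nuclear receptor core motif AGGTCA was in 13 of the 31 (41.9%), against 16.3% of the 32851 promoters of all genes. The other motifs were CCAAT (in 58.1% against 37.4%), the GC box GGGCGG (41.9% against 35.7%), TATAAA (19.4% against 13.6%), the C/EBP site TTNNGCAA (16.1% against 10.8%), the HNF4 site CAAAGTCCA (6.45% against 0.475%, both of them overlapping windows of Agxt2), the forkhead site GTAAACA (3.23% against 3.65%) and the cAMP response element TGACGTCA (0 of 31 against 1.79%). These shares describe letters in short windows only. The motifs were chosen after the values were seen.

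Levels differed widely between the enzymes. Compared per length, as FPKM (counts scaled to gene length and library size, mean of the 6 livers), the tyrosine enzyme Hpd was highest at 506, followed by Tat at 392, the tryptophan enzyme Tdo2 at 374 and Fah at 208. Uroc1 of the histidine pathway stood at 143, Hgd at 139.9 and Gpt2 at 132. The lowest were Sdsl at 5.53, Mccc1 at 4.91 and Acmsd at 2.33 FPKM. Neighbours in the upper part of this order were not separated, since Tat ran with an SD of 291 FPKM around a mean of 409 in the 3 sham livers.

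After VSG 6 of the 32 genes were expressed at a lower level and 0 at a higher level at an adjusted p under 0.05 (edgeR quasi-likelihood test, adjusted over all genes tested). The 6 were Gpt2, Gpt, Agxt2, Aldh4a1, Hibadh and Mccc1. Of all genes tested, 14.7% were called in either direction, 7.87% as lower and 6.79% as higher. These shares are the background of the edgeR counts by pathway and of the other lists below. At an unadjusted p under 0.05 the enzymes numbered 11 lower and 1 higher (Sdsl), where 33.9% of all genes passed, and with DESeq2 10 were lower and 1 was higher (again Sdsl), where 22.8% of all genes passed. The log2 change was negative in 24 of the 32 genes, with a median of -0.34, while the median over all genes tested was 0.028 and 47.6% of them were negative. The 3 VSG livers did not overlap the 3 sham livers in 13 of the 32 genes (40.6%), 12 lower and 1 higher, where 39.7% of all genes did not overlap, 19.8% as lower and 19.8% as higher.

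The calls depended on single livers. Leaving out sham replicate 1 gave 3 called enzymes, and leaving out sham replicate 2 gave 2, as did VSG replicate 4. With sham replicate 3 removed the edgeR count was 0, and with VSG replicate 6 removed it was 0 as well. Removing VSG replicate 5 raised it to 10, all of them lower. Calls among all genes moved in these fits as well, over a range given below. Without sham replicate 1, 1214 of 14814 genes tested were called, against 2118 of 14454 with all livers.

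**Figure D1:**
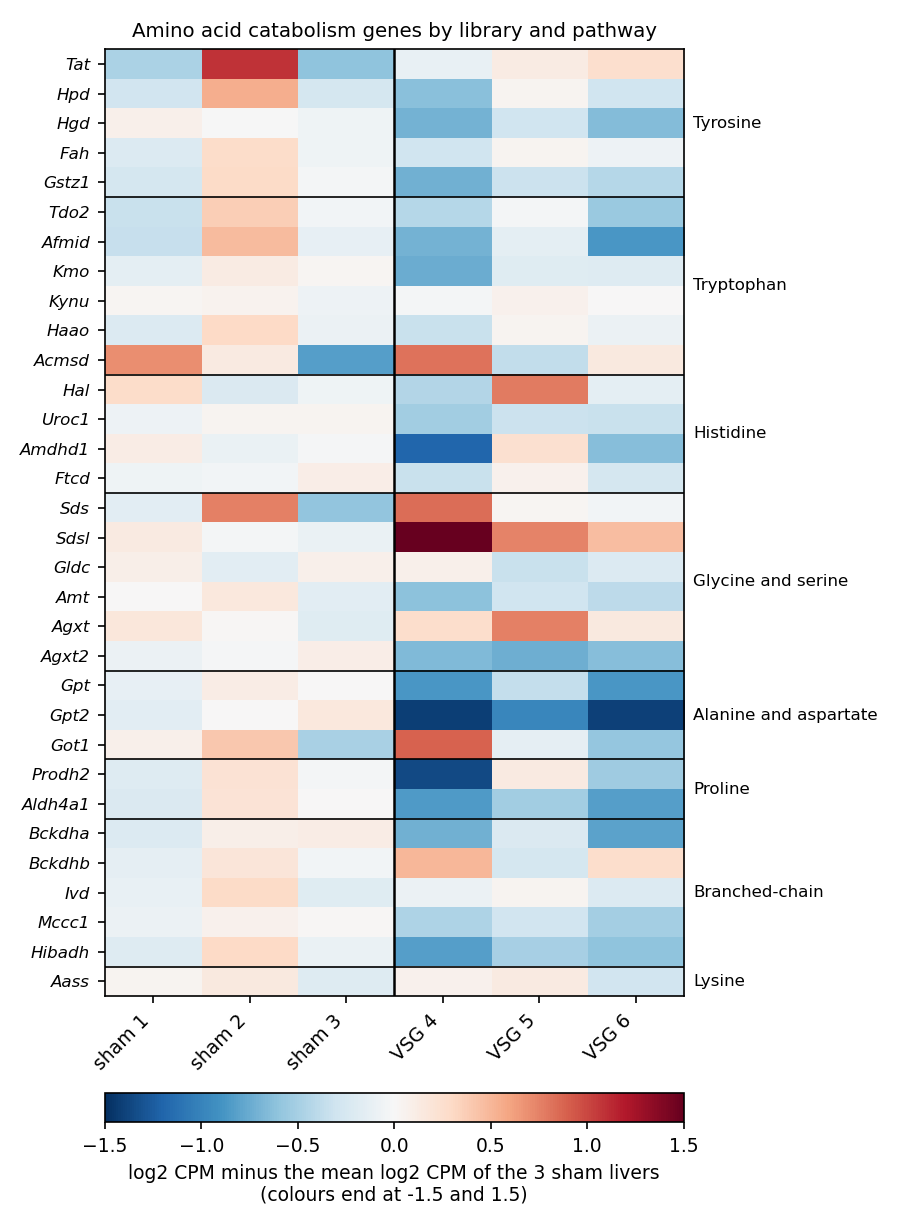
Expression of the 32 enzymes in each of the 6 livers on a colour scale of log2 CPM relative to sham (blue lower, red higher), with rows grouped by pathway. Gpt2, Gpt, Agxt2, Aldh4a1, Mccc1 and Hibadh are blue in all 3 VSG livers, Sdsl is red in all 3, and Tat is deep red in sham replicate 2 alone.

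The total counts ran from 22804397 to 24191778 per library. Hepatocyte markers were abundant in every liver (summed CPM of the 7 of 8 listed genes that could be matched, 80969 to 116664 in sham and 87456 to 112676 in VSG livers), and 1 of them was called, Hpx, which was higher and is also an acute phase protein, so that its rise from 4370 to 17806 CPM is part of the VSG sums. With DESeq2, 2 hepatocyte markers were higher and 1 was lower. Acute phase genes were higher in 9 of 9 cases (summed CPM 8573 to 9167 in sham, 29557 to 76636 in VSG livers), neutrophil granule genes in 9 of 9 (2.604 to 14.3 against 147 to 1820 CPM, but 3 of 9 called with limma-voom) and macrophage markers in 4 of 8 (345 to 729.6 against 742 to 2165 CPM). Stellate cell markers were lower in 1 of 8 cases (732 to 1099 against 399 to 690.5 CPM), and in 6 of 8 with DESeq2. Endothelial, lymphocyte and erythroid markers had 0 calls (edgeR; 1, 0 and 1 at an unadjusted p under 0.05, and 0, 0 and 1 with DESeq2). Cholangiocyte markers were higher in 1 of 5 cases, Sox9, and in 0 of 5 with limma-voom. Periportal markers were lower in 1 of 8 cases, and in 2 of 8 with DESeq2, and pericentral markers had 0 calls of 8 (edgeR; 2 at an unadjusted p under 0.05, and 2 with DESeq2). The part of these shifts in the enzyme values was not tested. In whole liver, fewer hepatocytes and less RNA per hepatocyte cannot be told apart.

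Gpt2 showed the largest fall of the 32 genes, and Gpt fell with it. Gpt2 encodes the mitochondrial form, which interconverts alanine and pyruvate in the matrix. Its gene lies on chromosome 8 from 85492576 to 85527560 (plus strand, GRCm38). It stood at 933, 1047 and 1168 CPM (counts scaled to library size) in the sham livers and at 394, 531 and 394 CPM in the VSG livers, so the highest VSG liver was far below the lowest sham liver. Its mean was 1049 ± 118 CPM (SD, n = 3) in sham against 439.6 ± 79.0 CPM in VSG livers, 2.39-fold lower (log2 change -1.25, SE 0.189, adjusted p 0.0134).

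The cytosolic form Gpt, on chromosome 15 from 76695716 to 76699686 (plus strand), stood at 206, 241 and 225 CPM in sham against 122, 174 and 122 CPM in VSG livers, again without overlap. The means were 224 ± 17.6 and 139 ± 30.1 CPM, a 1.61-fold difference (log2 change -0.68, SE 0.172, adjusted p 0.0437). The highest VSG value of both genes came from VSG replicate 5. Gpt2 was no longer called without sham replicate 3 (adjusted p 0.0729) and without VSG replicate 6 (0.0697). Gpt kept its call only when VSG replicate 5 was the liver left out (0.0123), and reached an adjusted p of up to 0.146 without any other liver.

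Within a liver the 2 forms can be compared without any scaling between libraries. Per length, Gpt2 exceeded Gpt 2.36-, 2.27- and 2.71-fold in the sham livers and 1.68-, 1.59- and 1.69-fold in the VSG livers. The ratio was lower in every VSG liver than in every sham liver, with means of 2.44 ± 0.231 and 1.65 ± 0.0550 (exact two-sided permutation p 0.1, the smallest that 3 against 3 livers allow). This ratio, like the others below, was chosen after the values were seen.

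Got1, the cytosolic aspartate transaminase, was not past the threshold. It stood at 122, 153 and 82.1 CPM in sham against 213, 105 and 77.1 CPM in VSG livers, so the groups overlapped and VSG replicate 4 stood alone at the top (log2 change 0.15, SE 0.402, adjusted p 0.815). Got2, its mitochondrial partner, dropped from 207 ± 26.8 to 130 ± 25.1 CPM (log2 change -0.67, SE 0.176, adjusted p 0.0489), a call that limma-voom did not make. Asrgl1, an asparaginase, dropped from 20.6 ± 0.909 to 15.1 ± 1.40 CPM (log2 change -0.45, adjusted p 0.0391).

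**Figure D2:**
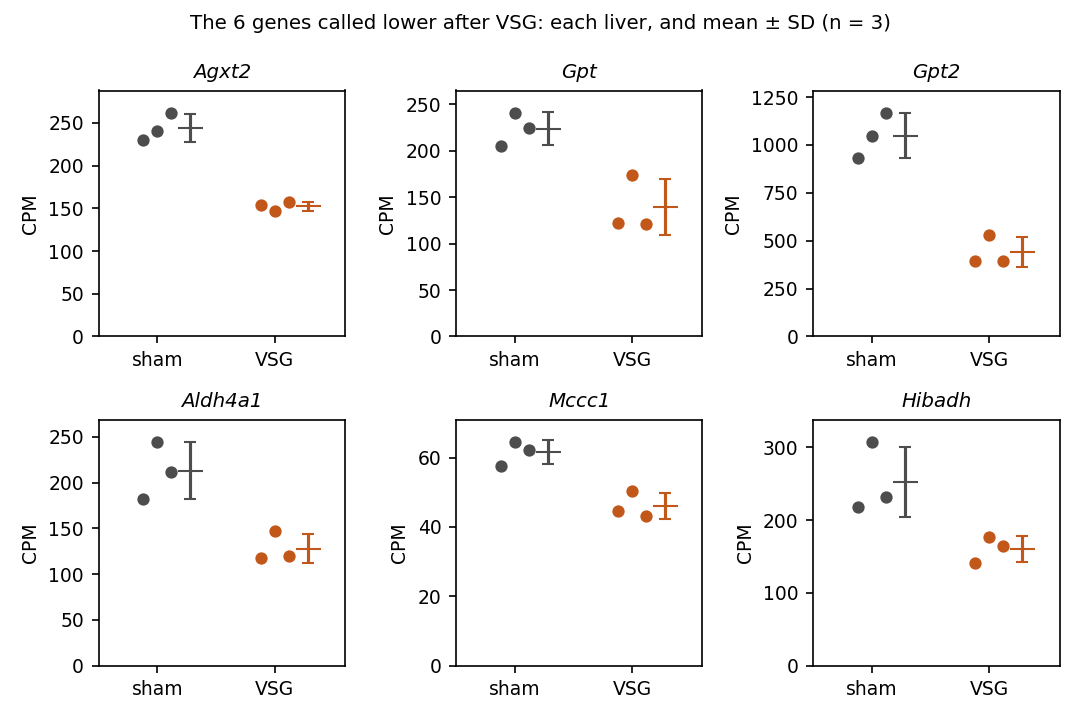
CPM of the 6 genes called lower after VSG, with 1 point per liver and the mean ± SD of 3 livers beside the points (sham grey, VSG orange, axes from 0). In each gene all VSG livers lie below all sham livers, with the widest gap in Gpt2, where the means are 1049 and 439.6 CPM.

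In the glycine and serine group 1 of 6 genes fell with edgeR, where 14.7% of all genes were called. The other 5 did not pass with edgeR, and their log2 changes had both signs. Agxt2 encodes a mitochondrial aminotransferase that transfers the amino group of alanine to glyoxylate and also degrades beta-aminoisobutyrate and dimethylarginines. Its gene lies on chromosome 15 from 10358532 to 10410153 (plus strand). It stood at 230.1, 241 and 262 CPM in sham livers and at 154, 147 and 157 CPM in VSG livers. The groups did not overlap, with means of 244 ± 16.1 CPM in sham and 153 ± 5.39 CPM after VSG (log2 change -0.68, SE 0.108, adjusted p 0.0155). The call was lost without sham replicate 3 (0.0833) and without VSG replicate 6 (0.0687).

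Agxt, the alanine-glyoxylate aminotransferase that detoxifies glyoxylate mainly in peroxisomes, had the opposite sign without passing the threshold. It stood at 122, 109.6 and 95.2 CPM in sham against 130.5, 183 and 119.9 CPM in VSG livers, so the groups overlapped (log2 change 0.41, SE 0.188, adjusted p 0.178). Per length, the ratio of Agxt2 to Agxt was 1.01, 1.18 and 1.47 in sham livers and 0.632, 0.430 and 0.703 in VSG livers. The ratio was below 1 in all 3 VSG livers and lower there than in every sham liver, where it was near 1 in sham replicate 1 (exact two-sided permutation p 0.1, the smallest possible).

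Sdsl, a serine dehydratase-like gene, had the only positive fold change among the genes whose groups did not overlap. It was low, at 5.80, 5.16 and 4.94 CPM in sham against 17.6, 8.89 and 7.30 CPM in VSG livers, and VSG replicate 4 stood above the rest. The log2 change was 1.08 (SE 0.332, adjusted p 0.0720) and 0.61 without VSG replicate 4. DESeq2 called it (0.0175), and so did the fit without a low-count filter (0.0438).

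Sds, serine dehydratase, which turns serine into pyruvate, overlapped between the groups. It stood at 105, 197 and 77.8 CPM in sham against 209.96, 119 and 114 CPM in VSG livers (log2 change 0.22, SE 0.391, adjusted p 0.712). Its exons overlap 360 bases of Plbd2 on the opposite strand, which had 57.8% as many counts, so its values are uncertain where strand was not used in counting. Of the glycine cleavage system, which splits glycine into carbon dioxide, ammonia and a methylene group, Amt was at 58.7 ± 6.48 CPM in sham against 43.4 ± 4.79 CPM in VSG livers. All 3 VSG livers were below the sham livers (log2 change -0.43, SE 0.125, adjusted p 0.0624), and Amt passed with DESeq2 (0.0302), with library totals (0.0326) and without VSG replicate 5 (0.0494). Gldc, the decarboxylase of the same complex, differed by less (log2 change -0.15, SE 0.144, adjusted p 0.488). Of the 15 other genes of the group, 13 were tested and 1 fell, serine racemase Srr, from 139.7 ± 14.9 to 87.4 ± 15.8 CPM (log2 change -0.68, adjusted p 0.0391). Dao and Tdh had 0 counts in each library, which allows up to 3 counts.

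**Figure D3:**
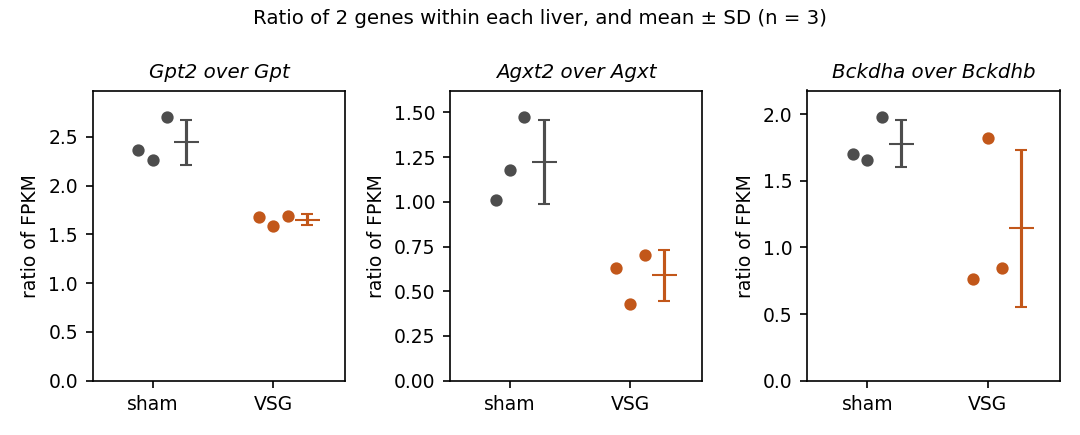
Ratio of FPKM of 2 enzymes within each liver (points) with the mean ± SD of 3 livers, axes from 0. The ratios of Gpt2 to Gpt and of Agxt2 to Agxt do not overlap between the groups, while that of Bckdha to Bckdhb does, because VSG replicate 5 stands at 1.82 and the other VSG livers at 0.760 and 0.848.

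In the proline pathway the second step fell and the first step of the hydroxyproline branch varied. Aldh4a1 oxidises the semialdehyde made from proline or hydroxyproline, which yields glutamate in the case of proline. The gene lies on chromosome 4 from 139622866 to 139649690 (plus strand). It stood at 182, 244 and 212 CPM in sham against 118, 147 and 119.5 CPM in VSG livers, without overlap (log2 change -0.73, SE 0.155, adjusted p 0.0290). Its adjusted p was 0.0758 when sham replicate 2 was left out, 0.114 for sham replicate 3, 0.0704 for VSG replicate 4 and 0.110 for VSG replicate 6.

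Prodh2, hydroxyproline dehydrogenase, was at 95.7, 127 and 107 CPM in sham against 42.8, 119 and 75.3 CPM in VSG livers. VSG replicate 5 lay within the sham range and VSG replicate 4 was the lowest (log2 change -0.47, SE 0.345, adjusted p 0.365). Prodh, the proline dehydrogenase of the first step, dropped from 137 ± 22.6 to 73.7 ± 21.9 CPM (log2 change -0.89, adjusted p 0.0494), and it was the only edgeR call among the 5 further genes of proline and glutamate breakdown, of which limma-voom called 0.

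Of the 5 branched-chain genes 2 fell with edgeR, Hibadh and Mccc1, and 3 with DESeq2, which also called the dehydrogenase subunit Bckdha. Of all genes, 14.7% were called with edgeR and 22.8% with DESeq2, and 5 genes are too few to set against these shares. Hibadh, which oxidises hydroxyisobutyrate in valine breakdown, lies on chromosome 6 from 52546228 to 52640389 (minus strand). It stood at 218, 307 and 232 CPM in sham against 141, 176 and 164 CPM in VSG livers (log2 change -0.65, SE 0.170, adjusted p 0.0481). With limma-voom its adjusted p was 0.0502, and of the fits without a single liver only that without VSG replicate 5 called it (0.0464), the others reaching 0.137.

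Mccc1, the biotin-carrying subunit of methylcrotonyl-CoA carboxylase in leucine breakdown, lies on chromosome 3 from 35959312 to 36000678 (minus strand). It stood at 57.7, 64.5 and 62.3 CPM in sham against 44.7, 50.2 and 43.1 CPM in VSG livers, the smallest fall among the called genes at 1.34-fold (log2 change -0.42, SE 0.0977, adjusted p 0.0361). Here too only the fit without VSG replicate 5 kept the call when a single liver was left out (0.0262), the others reaching 0.136. Its partner subunit Mccc2 was at 68.0 ± 7.83 CPM in sham against 50.2 ± 10.6 CPM in VSG livers (log2 change -0.44, adjusted p 0.132).

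Ivd, the isovaleryl-CoA dehydrogenase just before that carboxylase, overlapped between groups at 147 ± 26.6 and 138 ± 11.6 CPM (log2 change -0.10, SE 0.154, adjusted p 0.683). The branched-chain ketoacid dehydrogenase commits all 3 amino acids to breakdown, and the subunits of its decarboxylase had opposite signs. Bckdha was at 139, 170.04 and 174 CPM in sham against 97.1, 138 and 92.2 CPM in VSG livers, the top VSG liver falling just below the lowest sham liver (log2 change -0.56, SE 0.185, adjusted p 0.0850). Bckdha passed with DESeq2 (0.0336) and with edgeR when VSG replicate 5 was left out (0.0209). Bckdhb was at 78.1, 97.4 and 83.4 CPM in sham against 121, 71.9 and 103 CPM in VSG livers (log2 change 0.20, SE 0.201, adjusted p 0.518). Per length, the ratio of Bckdha to Bckdhb was 1.78 ± 0.175 in sham and 1.14 ± 0.589 in VSG livers (exact two-sided permutation p 0.3). Of the 1899 exon bases of Bckdha, 1171 overlap B3gnt8 on the opposite strand, so the size of this ratio is uncertain. The kinase Bckdk, which inhibits the complex, and the phosphatase Ppm1k, which activates it, had log2 changes of -0.046 and 0.17 (adjusted p 0.851 and 0.521).

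Of the 18 other branched-chain genes 3 fell, among them 2 that dispose of propionyl-CoA. Pcca, a subunit of propionyl-CoA carboxylase, dropped from 88.6 ± 8.44 to 55.5 ± 6.85 CPM (log2 change -0.68, adjusted p 0.0216). Mcee, methylmalonyl-CoA epimerase, dropped from 34.9 ± 3.42 to 22.7 ± 3.09 CPM (log2 change -0.62, adjusted p 0.0304). Bcat2, the mitochondrial branched-chain transaminase, was low at 14.4 ± 1.79 and 19.9 ± 3.59 CPM and did not pass (log2 change 0.47, adjusted p 0.104).

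**Figure D4:**
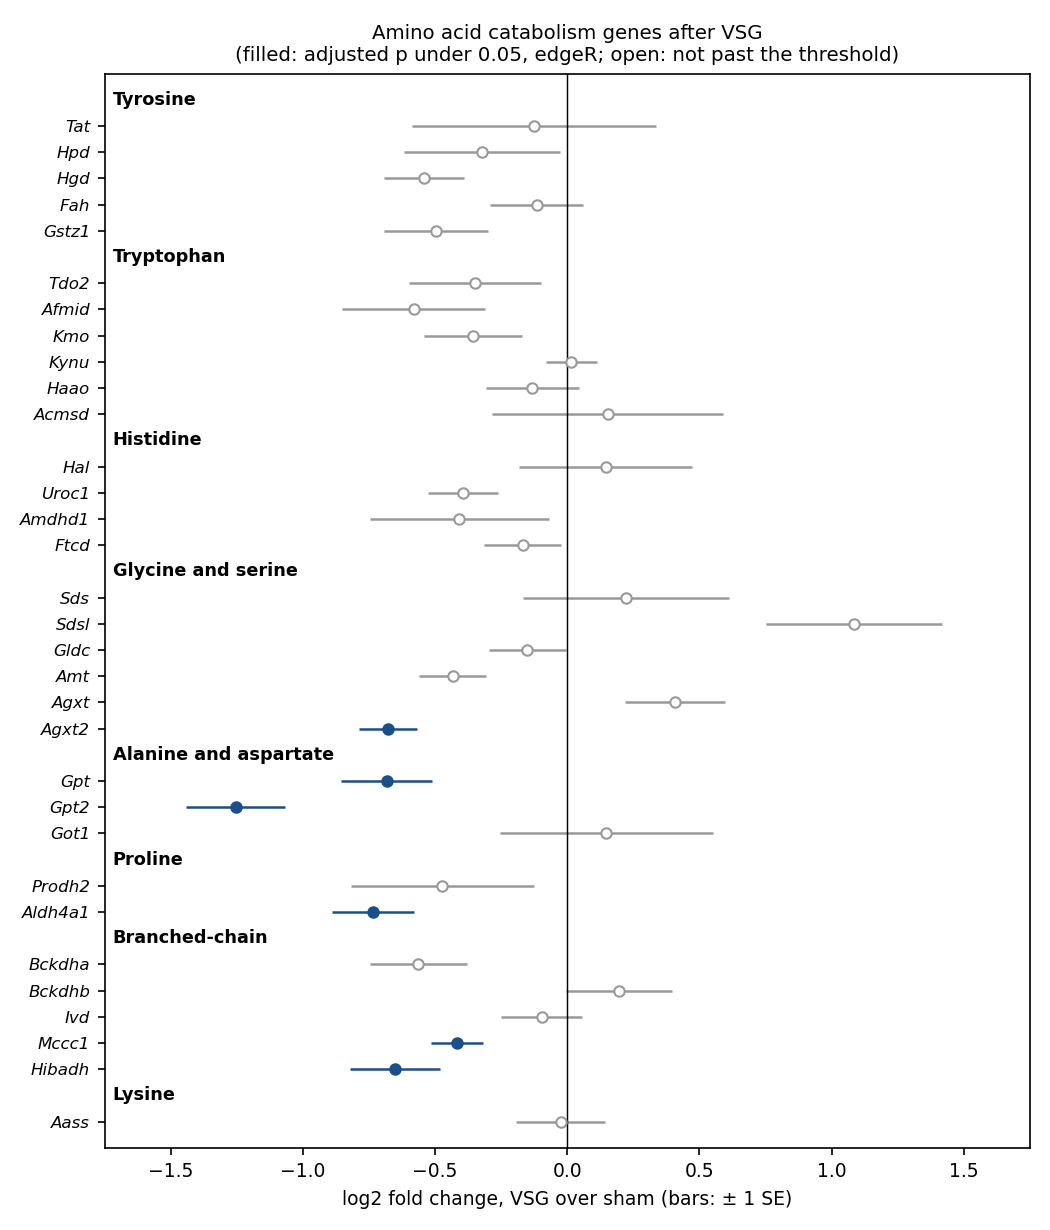
Log2 change of VSG over sham with bars of ± 1 SE for the 32 enzymes, by pathway (filled points, adjusted p under 0.05 by edgeR). The 6 filled points lie between -1.25 (Gpt2) and -0.42 (Mccc1), and none is in the tyrosine, tryptophan, histidine or lysine pathways.

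In the tyrosine pathway 0 of 5 genes passed the threshold with edgeR, although all 5 log2 changes were negative (median -0.32). At an unadjusted p under 0.05 there were 2, Hgd and Gstz1, with DESeq2 there was 1, Hgd, and with limma-voom 0. Hgd, homogentisate dioxygenase, stood at 456, 431 and 415 CPM in sham against 266, 353 and 276 CPM in VSG livers, without overlap (log2 change -0.54, SE 0.152, adjusted p 0.0584, and 0.0243 without VSG replicate 5). Gstz1, the maleylacetoacetate isomerase of the next step, was at 598, 874 and 706 CPM in sham against 436, 575 and 533 CPM in VSG livers (log2 change -0.50, SE 0.197, adjusted p 0.130).

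Tat, tyrosine aminotransferase, which opens the pathway, had the widest range of the tyrosine genes. It stood at 607, 1791 and 555 CPM in sham against at 781, 918 and 1009 CPM in VSG livers, so sham replicate 2 lay above all VSG livers and the other sham livers below them. The log2 change was -0.12 (SE 0.461, adjusted p 0.868) with that liver and 0.63 without it. Hpd, the dioxygenase of the second step, was also highest in sham replicate 2, at 948, 1683 and 962 CPM in sham against 749.999, 1184 and 939 CPM in VSG livers (log2 change -0.32, adjusted p 0.467). Fah, which makes fumarate and acetoacetate in the last step, was at 479.7 ± 83.3 and 443 ± 52.1 CPM (log2 change -0.12, SE 0.177, adjusted p 0.668). Of the 3 further genes of the pathway 1 fell, Pcbd1, which recycles a pterin cofactor and dropped from 184 ± 21.6 to 91.97 ± 19.9 CPM (log2 change -0.9998, adjusted p 0.0219).

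In the tryptophan to NAD route 0 of 6 genes passed with edgeR, as with DESeq2, with limma-voom and at an unadjusted p under 0.05. Tdo2, the dioxygenase of the first step, was at 1266, 2062 and 1557 CPM in sham against 1183, 1563 and 1087 CPM in VSG livers (log2 change -0.35, SE 0.251, adjusted p 0.357). Kmo, kynurenine monooxygenase, was at 329.9, 397 and 373 CPM in sham against 218, 321 and 319 CPM in VSG livers, with VSG replicate 5 just under the lowest sham liver (log2 change -0.36, SE 0.186, adjusted p 0.221). Kynureninase, encoded by Kynu, was the steadiest of the 32 genes, between 128 and 141 CPM in all 6 livers (log2 change 0.015, SE 0.0964, adjusted p 0.927). Haao, the hydroxyanthranilate dioxygenase, and Afmid, the formamidase, had log2 changes of -0.13 and -0.58 (adjusted p 0.618 and 0.182). Afmid shares 83 exon bases with Tk1 on the opposite strand, which had 44.7% as many counts. It also shares 1566 of its 3539 exon bases with Gm20708 on the same strand, which had 6 counts. Acmsd, which diverts the pathway away from NAD, had the lowest level and was at 9.27, 6.26 and 3.23 CPM in sham against 10.1, 4.45 and 6.34 CPM in VSG livers. Qprt, which continues the route to NAD, was 1 of 5 further genes of the pathway to fall, from 144 ± 9.53 to 105 ± 3.97 CPM (log2 change -0.46, adjusted p 0.0319).

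In the histidine pathway 0 of 4 genes passed with edgeR, with 1 at an unadjusted p under 0.05 1 with DESeq2, Uroc1 in both cases, and 0 with limma-voom. Uroc1, urocanate hydratase, was at 533, 578 and 580.2 CPM in sham against 392, 449 and 446 CPM in VSG livers, without overlap (log2 change -0.39, SE 0.132, adjusted p 0.0890). Hal, the ammonia-lyase that starts the pathway, was at 305, 217 and 241 CPM in sham against 185, 432 and 227 CPM in VSG livers, with VSG replicate 5 the highest of all (log2 change 0.15, SE 0.327, adjusted p 0.777). Amdhd1, the imidazolonepropionase, followed VSG replicate 5 too, at 152, 132 and 139.5 CPM in sham against 61.6, 167 and 90.4 CPM in VSG livers. Its log2 change was -0.41 (adjusted p 0.422) and -0.91 without that liver (0.0287). Ftcd, which passes the formimino group to folate, was at 316 ± 20.0 and 281 ± 42.03 CPM (log2 change -0.17, SE 0.147, adjusted p 0.444).

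In the lysine pathway Aass, the bifunctional enzyme of the first 2 steps, was at 341 ± 41.2 CPM in sham against 335 ± 51.0 CPM in VSG livers (log2 change -0.025, SE 0.167, adjusted p 0.930). Of 5 further lysine genes 0 passed with edgeR, 1 with DESeq2, and Aldh7a1 and Gcdh at an unadjusted p under 0.05, with log2 changes of -0.61 each (adjusted p 0.0728 and 0.128).

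Single livers stood high or low in many of the genes at once. Sham replicate 2 was the highest of the 3 sham livers in 20 of the 32 genes and VSG replicate 5 the highest of the 3 VSG livers in 24, with median differences of 0.14 and 0.17 from the group mean on the log2 scale. VSG replicate 4 was the lowest of all 6 livers in 15 genes and the highest in 5, which were Acmsd, Sds, Sdsl, Got1 and Bckdhb. From the mean of all 6 livers, the median difference of the 32 enzymes was 0.33 in sham replicate 2, 0.029 in VSG replicate 5 and -0.30 in VSG replicate 4. Over 14377 genes with counts in every library, that difference was between -0.0068 and 0.025, which the TMM scaling holds near 0. VSG replicate 5 also had the lowest summed acute phase genes of the VSG livers (29557 CPM against 61960 and 76636) and the lowest neutrophil genes (147 CPM against 839 and 1820). The part of these differences in the enzyme values was not tested.

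Across the 56 other enzymes of the same pathways, 54 could be tested, and 9 were lower and 0 higher after VSG with edgeR, a share of 16.7% near the 14.7% called among all genes (7.87% as lower). At an unadjusted p under 0.05 there were 23 lower and 1 higher (Bcat2), where 33.9% of all genes passed, and with DESeq2 19 were lower and 0 higher, where 12.3% of all genes were lower. With limma-voom 7 were lower and 0 higher. Their median log2 change was -0.42, and it was negative in 44 of 54. Pcbd1, Qprt, Srr, Got2, Asrgl1, Prodh, Pcca and Mcee were among the 9. With sham replicate 2 removed the edgeR count was 0, and it was also 0 with sham replicate 3 or VSG replicate 6 removed. It was 1 with VSG replicate 4 removed, 6 with sham replicate 1 removed and 14 with VSG replicate 5 removed, and these are counts, not the same genes throughout. Calls among all genes moved too, to 1214 without sham replicate 1 against 2118 with all livers.

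Among 11 genes of amino acid transport 1 was called (9.09%, against 14.7% of all genes). Slc43a1, a carrier of large neutral amino acids, rose from 2.67 ± 1.015 to 12.9 ± 2.497 CPM, with 3.43, 3.06 and 1.52 CPM in sham against 12.1, 15.7 and 10.9 CPM in VSG livers (log2 change 2.27, SE 0.318, adjusted p 0.0114). The count was 0 without VSG replicate 6.

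Among 12 regulators 3 were called (25%, against 14.7% of all genes). Onecut1, a hepatocyte transcription factor, was at 4.73, 3.93 and 2.36 CPM in sham against 24.8, 26.7 and 6.54 CPM in VSG livers (log2 change 2.40, SE 0.547, adjusted p 0.0341). Creb1, which mediates cAMP signals such as those of glucagon, rose from 25.5 ± 0.875 to 35.5 ± 3.14 CPM (log2 change 0.48, SE 0.0980, adjusted p 0.0269). Ppargc1a, a coactivator of mitochondrial genes and gluconeogenesis, dropped from 20.9 ± 3.89 to 12.1 ± 2.02 CPM (log2 change -0.79, SE 0.186, adjusted p 0.0371). Klf15, a known activator of amino acid breakdown, the glucagon receptor Gcgr and the glucocorticoid receptor Nr3c1 did not pass, with log2 changes of -0.50, -0.22 and 0.27 (adjusted p 0.254, 0.517 and 0.169). With sham replicate 2 removed the edgeR count of called regulators was 0, and it was also 0 with sham replicate 3 or VSG replicate 4 removed. It was 1 (Onecut1, higher) with VSG replicate 6 removed and 2 (both lower) with sham replicate 1 removed. The rises of Onecut1 and Creb1 were thus not called without sham replicate 1, a fit in which 1214 genes were called in all against 2118. Onecut1 was not called with limma-voom (adjusted p 0.0890) or without VSG replicate 5 (0.0510), nor Creb1 with library totals (0.171).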

How the data were processed

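Poly(A) RNA of 3 sham and 3 VSG livers was measured, and samples were grouped by their titles. The authors deposited raw counts of reads per gene. As the study's methods and the submitters' processing notes state, they made strand-specific libraries, checked them with FastQC 0.10.1, aligned the reads with STAR 2.6.0 to mm10 and counted them with featureCounts, giving version 2.0.3 in the notes. The annotation and strand option are not given in the sources used here, so counts of genes overlapping on opposite strands are uncertain. How reads in exons shared on the same strand were counted is not given either. This concerns Afmid and Aldh4a1, of which 1595 of 4907 exon bases overlap Gm21969. A deposited column of exon length, of no sample, served for FPKM. Symbols were taken from GENCODE M21 (GRCm38), in which 55144 of 55385 genes were found. Gcat had 2 identifiers, and the one with more counts was used.

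The test was edgeR's quasi-likelihood test (version 4.0.16, R 4.3.3) on genes kept by filterByExpr with a minimum count of 10 and total of 15 (TMM factors 0.897 to 1.15, glmQLFit, glmQLFTest, group as the only term), with Benjamini-Hochberg adjustment over all 14454 genes. Where no tool is given, an adjusted p is from this edgeR fit. The SE is the size of the log2 change divided by the square root of F. VSG against sham was also simulated over 14257 genes. There the edgeR test called 50 of 50 genes set at a log2 change of -2 and 49 of 50 at 2. It called 22 of 49 at -1 and 24 of 50 at 1, with 9 of 14058 unchanged genes called. Changes of this smaller size were thus missed in many genes of the simulation. How many changes were missed among the measured genes was not tested. CPM and FPKM use the same factors. A count of 3 was taken as the floor, which covers counting error only. Replicates are said to be separate mice, and pairs within a group differed by more than counting noise (chi-square per degree of freedom at least 25.2). Alternatives were DESeq2 1.42.0, limma-voom (limma 3.58.1), RLE factors, library totals, no filter, at least 10 counts in every library and leaving out each liver. Every one of the 32 genes is named. Of the other lists, the rule named the 3 genes of smallest adjusted p in each group among those past 0.05, and enzymes of the step before or after one described. Bckdk, Ppm1k, Mccc2, Klf15, Gcgr, Nr3c1, Aldh7a1, Gcdh, Dao and Tdh fall outside it and were picked after their values were seen, as were the motifs, promoters and ratios. The genes and lists were chosen with earlier results of these data known. No p was computed over a list. Values of some genes of the other lists are not reported here.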

Additional observations from a re-analysis of the deposited data

How the results depend on the processing

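Leaving out each liver moved most counts. Across these 6 fits, 159 to 2732 genes changed in all against 2118, 0 to 10 of the 32 enzymes against 6, and 0 to 14 of the other enzymes against 9. By pathway, the ranges were 0 to 1 for tyrosine, 0 to 1 for histidine, 0 to 2 for glycine and serine, 0 to 2 for alanine and aspartate, 0 to 1 for proline and 0 to 3 for branched-chain genes. Transport genes ranged from 0 to 2 and regulators from 0 to 3. With DESeq2, 3288 genes changed, 11 of the 32 enzymes (1 tyrosine, 1 histidine, 3 glycine and serine and 3 branched-chain genes, with alanine and proline as before) and 19 of the others. With library totals, which moved the median of all genes by -0.14, 1998 genes changed, 486 higher and 1512 lower, against 981 and 1137. In that fit 2 glycine and serine genes, 19 other enzymes and 2 transport genes changed. The median of the 32 enzymes was then -0.33 relative to that of all genes, against -0.36. Without a filter 2 glycine and serine genes changed, and with limma-voom 1 branched-chain gene did. The cause was not tested. In the first 6 fits, having fewer livers and which liver was removed cannot be told apart.

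Signs turned in 20 of 384 refits, for 11 genes that were called in 0 of their refits. When single livers were left out, the log2 change of Tat ran from -0.42 to 0.63, of Hpd from -0.52 to 0.000586, of Fah from -0.22 to 0.028, of Kynu from -0.030 to 0.038, of Haao from -0.24 to 0.028, of Acmsd from -0.21 to 0.55, of Hal from -0.33 to 0.37, of Sds from -0.12 to 0.69, of Got1 from -0.38 to 0.42, of Ivd from -0.19 to 0.057 and of Aass from -0.13 to 0.096. Without sham replicate 2, Tat, Hpd, Fah, Haao, Ivd and Aass turned. Tat was at 0.066 with limma-voom, Kynu at -0.12 with library totals and -0.017 without a filter, and Acmsd at -0.000673 with library totals. The signs of the 6 called genes held in all 12 alternatives. No paired analysis was possible because the groups share no replicate number. The lowest count of any of the 32 enzymes in a library was 85 (Acmsd), so depth limited none of them to the floor.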
